A study of Mus musculus with 21 samples.

Results

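Messenger RNA of RAW 264.7 cells was compared between the middle and the lowest of the doses of 500 nm amorphous silica, 500 µg/ml and 250 µg/ml. RAW 264.7 is a macrophage-like tumour line of the mouse that takes up particles and is widely used in place of primary macrophages. The members were the arrays whose titles name the 500 nm particle at the mid or the low dose, 3 of each, which are 6 of the 21 arrays of the series. All 22626 probe sets that are not array controls were tested, so no gene was chosen for its response. The cells at 500 µg/ml and those at 250 µg/ml had both been exposed to the particles for 2 h in serum-free medium. Where levels outside the step are given, they come from 3 arrays of cells at 1000 µg/ml of the same particle, 3 arrays each of cells at 20 and at 5 µg/ml of 10 nm silica, and 3 arrays of untreated cells. Whether the untreated cells were also moved to serum-free medium is not stated in the labels. The labels give replicate numbers and do not say that these were separate cultures. A p-value here rests on how far arrays of the same group lie apart, which may be technical. That spread was pooled over all 21 arrays of the series, with those at 50 µg/ml of 10 nm silica among them.

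Macrophages meet inhaled silica in the lung, engulf it and carry it into lysosomes, where damage to the membrane is a known start of inflammatory signalling. Within the first hours after such a stimulus, MAP kinases and the factor NF-kB switch on immediate early genes, whose transcription needs no new protein. Among these are transcription factors of the AP-1 and EGR families, cytokines and chemokines that call other leukocytes, and phosphatases and RNA-binding proteins that end the signal. A 2-fold step between doses shows which of these genes are still climbing between them and which do not move.

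Each probe set is a group of short probes on the array, read as 1 intensity, given here as log2 values, so that a difference of 1 is a 2-fold change. The arrays had a like spread of values, with an SD over probe sets of 2.60, 2.67 and 2.57 at 500 µg/ml and 2.64, 2.61 and 2.58 at 250 µg/ml. Pearson's r across probe sets, which are not independent replicates, ran between 0.991 and 0.997 within the doses and between 0.990 and 0.997 across them. The 12 macrophage markers, among them Csf1r, Cd68 and Lyz2, averaged 9.63 to 9.78 at 500 µg/ml and 9.71 to 9.80 at 250 µg/ml, and 9 of the 12 lay above the median probe set. The marker lists of T and B cells, neutrophils, fibroblasts, dendritic and epithelial cells averaged between 3.73 and 5.90 at 500 µg/ml and between 3.73 and 5.81 at 250 µg/ml. By limma, 0 markers of any list were called. Fewer cells and less RNA per cell cannot be told apart in these arrays.

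Few genes moved over the step, and the larger changes were rises. By limma across all probe sets (called at a Benjamini-Hochberg adjusted p under 0.05), 63 probe sets were higher at 500 µg/ml, 0.278% of those tested, and 33 were lower, 0.146%. Together these 96 were 0.424% of the probe sets. In all 96 the 3 arrays at 500 µg/ml lay apart from the 3 at 250 µg/ml, as they did in 11.2% of all probe sets. The rises belonged to 50 genes and ran between 0.37 and 3.05 on the log2 scale, with 25 at least 2-fold. The falls belonged to 25 genes and ran between -1.46 and -0.45, with 4 at least 2-fold. With the replicate number as a block over all 21 arrays, 102 probe sets were higher and 55 lower, and the 96 were all among them. Same-numbered arrays of these doses deviated together (r 0.19, 0.52 and 0.60 over probe sets). Over all groups 13 of 63 such pairs correlated at or under 0.1, so the block is not borne out for every group. At an unadjusted p under 0.05 the split was the other way round, with 362 higher and 518 lower. These 880 are fewer than would pass at 0.05 among 22626 probe sets if none changed. The unadjusted p-values of this fit thus run large. The split at that threshold cannot show whether falls were many or few. The higher calls made up 65.6% of all calls as deposited and 76.6% once each array was centred and rescaled to a common spread. Leaving out any 1 of the 6 arrays brought the counts to between 34 and 47 higher and between 13 and 17 lower, and between 49 and 62 of the 96 were then kept.

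**Figure D1:**
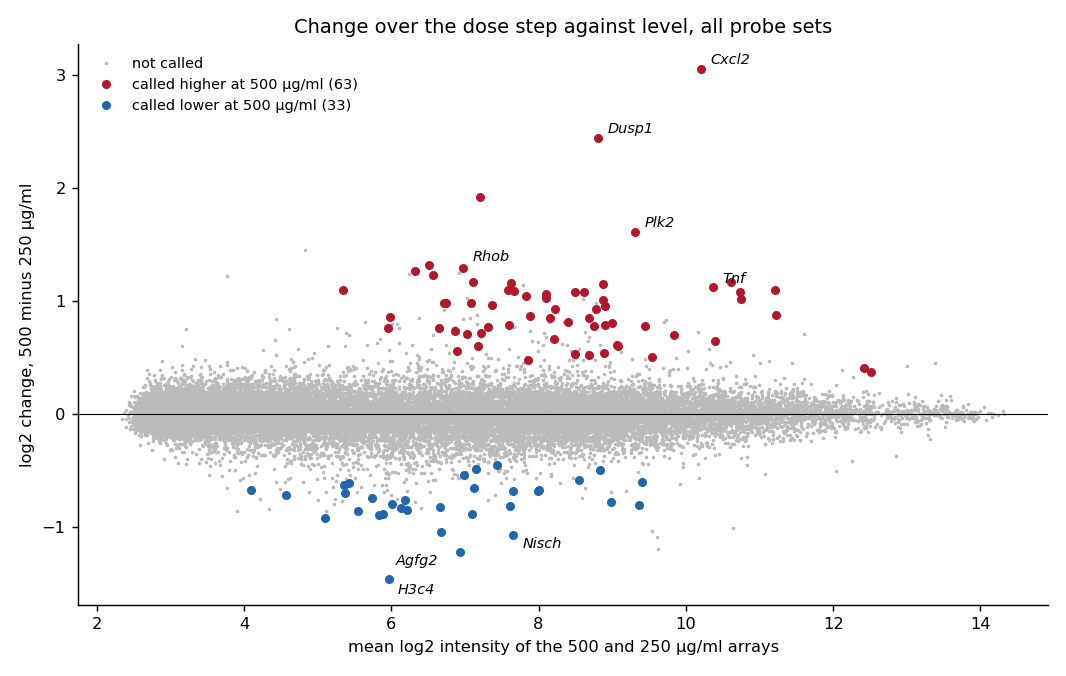
The log2 change of each probe set (500 minus 250 µg/ml) is plotted against its mean log2 intensity over the same 6 arrays. Red points are the 63 probe sets called higher at 500 µg/ml, blue points the 33 called lower and grey points those not called. Cxcl2 at 3.05 and Dusp1 at 2.44 stand apart from the other rises, while the falls end at -1.46 (H3c4).

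Cxcl2, a chemokine that draws neutrophils, had the largest rise of all. Its level was 11.70, 11.80 and 11.68 at 500 µg/ml, against 8.67, 8.65 and 8.71 at 250 µg/ml. The means were 11.73 ± 0.06 at 500 µg/ml and 8.68 ± 0.03 at 250 µg/ml (SD, n = 3 each), which is 8.29-fold (limma log2 change 3.05 ± 0.13 SE, adjusted p 4.14e-11). The gap between the doses was many times the spread of the replicates. Along the whole series the means were 6.95 in untreated cells, 8.68 at 250, 11.73 at 500 and 12.94 at 1000 µg/ml. Ccl4, a chemokine for monocytes and T cells, had 11.35, 11.10 and 11.13 at 500 µg/ml, against 10.17, 10.01 and 9.90 at 250 µg/ml (log2 change 1.17 ± 0.12 SE, adjusted p 2.98e-05 by limma). Tnf, the early inflammatory cytokine, had 11.00, 10.97 and 10.87 at 500 µg/ml, against 9.88, 9.75 and 9.79 at 250 µg/ml (1.13 ± 0.12 SE, adjusted p 2.98e-05 by limma). The doses did not overlap in either gene. These were the 3 members called among 32 measured chemokine and cytokine genes, each taken by its brightest probe set. The other 29 had no call in either direction, and the median of the list was 0.08, beside 0.00 over all 12393 genes, of which 0.371% were called higher by this rule. Il1rn, which encodes the natural antagonist of the interleukin 1 receptor, was called by a probe set other than its brightest, with 7.19, 7.19 and 7.16 at 500 µg/ml, against 6.11, 5.90 and 5.84 at 250 µg/ml (1.23 ± 0.13 SE, adjusted p 5.38e-05 by limma). The brightest probe set of Il1rn averaged 7.40 ± 0.29 at 500 µg/ml and 6.56 ± 0.28 at 250 µg/ml (SD, n = 3 each), a change of 0.84 that limma did not call (adjusted p 0.783).

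Dusp1 encodes a nuclear phosphatase that switches off the stress-activated MAP kinases. It had 10.07, 10.03 and 9.98 at 500 µg/ml, against 7.74, 7.53 and 7.51 at 250 µg/ml. The rise was 5.41-fold (log2 change 2.44 ± 0.09 SE, adjusted p 2.24e-11 by limma), and its means along the series were 6.81 in untreated cells, 7.59 at 250, 10.03 at 500 and 11.25 at 1000 µg/ml. Plk2, a stress-responsive Polo-like kinase, had 10.13, 10.36 and 9.86 at 500 µg/ml, against 8.62, 8.59 and 8.31 at 250 µg/ml (1.61 ± 0.26 SE, adjusted p 0.00449 by limma). Its kin Plk3 was called with a change of 0.97, and this call was lost on leaving out any of 5 arrays (all but replicate 3 at 500 µg/ml, adjusted p up to 0.348). Dusp2, a phosphatase of immune cells, had 9.48, 9.32 and 9.57 at 500 µg/ml, against 8.35, 8.19 and 8.37 at 250 µg/ml (1.15 ± 0.17 SE, adjusted p 0.00179 by limma). Dusp16 rose by 0.93 and Rgs1, which shortens signals of G protein-coupled receptors, by 0.88. Of the 26 measured genes for MAP kinase phosphatases and signalling feedback, these 6 were higher and 0 were lower, against 0.371% of all genes higher, with a median of 0.20.

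The promoter windows of the genes with the largest named rises are shown, chosen by the size of the rise and not by their motifs. They run 250 bases before to 50 bases after the RefSeq start site (GRCm38.p6), 5′ to 3′ on the strand of the gene, and capitals mark every match on either strand to the motifs searched. The Cxcl2 window is chr5:90903649-90903948 on the plus strand, the Dusp1 window chr17:26508423-26508722 on the minus strand, the Plk2 window chr13:110394794-110395093 on the plus strand and the Rhob window chr12:8499960-8500259 on the minus strand.
Cxcl2: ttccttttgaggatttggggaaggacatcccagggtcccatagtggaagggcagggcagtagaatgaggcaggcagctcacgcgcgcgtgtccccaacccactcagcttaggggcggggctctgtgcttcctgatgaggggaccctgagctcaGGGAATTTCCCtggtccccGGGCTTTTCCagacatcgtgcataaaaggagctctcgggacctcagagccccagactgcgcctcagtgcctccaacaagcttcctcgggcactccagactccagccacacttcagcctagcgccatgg
Dusp1: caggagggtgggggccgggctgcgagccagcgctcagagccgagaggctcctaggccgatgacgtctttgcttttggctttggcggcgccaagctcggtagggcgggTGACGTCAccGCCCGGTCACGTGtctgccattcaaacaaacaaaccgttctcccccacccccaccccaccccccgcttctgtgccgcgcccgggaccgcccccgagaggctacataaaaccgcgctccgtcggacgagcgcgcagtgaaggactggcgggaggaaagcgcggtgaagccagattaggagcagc
Plk2: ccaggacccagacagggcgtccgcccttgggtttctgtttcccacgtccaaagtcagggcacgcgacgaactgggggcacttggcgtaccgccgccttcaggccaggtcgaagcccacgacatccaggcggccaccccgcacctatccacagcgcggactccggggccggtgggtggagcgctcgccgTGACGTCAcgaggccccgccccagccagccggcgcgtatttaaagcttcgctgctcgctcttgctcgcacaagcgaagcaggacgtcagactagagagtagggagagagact
Rhob: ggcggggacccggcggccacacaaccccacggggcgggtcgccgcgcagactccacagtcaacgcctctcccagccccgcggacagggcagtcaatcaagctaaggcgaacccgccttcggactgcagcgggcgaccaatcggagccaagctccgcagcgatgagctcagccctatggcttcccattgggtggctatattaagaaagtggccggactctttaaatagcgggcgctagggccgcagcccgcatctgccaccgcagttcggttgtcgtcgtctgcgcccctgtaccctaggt
The Cxcl2 window held 3 matches to the NF-kB motif (GGG, any 3 bases, then TTCC), 2 of them overlapping, which begin 97, 96 and 78 bases before the start site. The Dusp1 window held the full cAMP response element TGACGTCA 143 bases before the start, followed by the NRF2 element TGACNNNGC, which overlaps an E-box, CACGTG. The Plk2 window held the same cAMP response element 62 bases before the start, and the Rhob window held no match to any motif searched. Over all genes called higher, 38 of 50 had a window in the table, and 6 of the 38 held the cAMP response element (15.8%, in Btg2, Dusp1, Plk2, Ppp1r15a, Zbtb21 and Zfand2a), beside 1.88% of the first windows of 27025 genes. The NF-kB motif stood in 5 of the 38 (13.2%, against 5.52% of all windows), the AP-1 motif TGANTCA in 5 (13.2%, against 7.93%), the E-box in 7 (18.4%, against 7.24%) and the NRF2 element in 7 (18.4%, against 12.5%). Of the 25 genes called lower, 24 had a window, with the cAMP response element in 1 and the NF-kB motif in 0, but the E-box in 5 (20.8%). The EGR motif GCGGGGGCG, the ATF4 element TGATGCAA and the CArG box of SRF (CC, 6 bases that are A or T, then GG) were each in at most 2 windows of either group. In this order they were in 5.26%, 5.26% and 2.63% of windows of higher genes and in 4.17%, 0% and 4.17% of lower ones. Over all genes the shares were 2.92%, 0.929% and 1.57%. The sterol element TCACNCCAC was in 0 of both groups, and the TATA box TATAAA in 7 windows of higher genes and 2 of lower ones, beside 14.2% of all. These matches describe letters in a window, carry no test and show no binding.

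**Figure D2:**
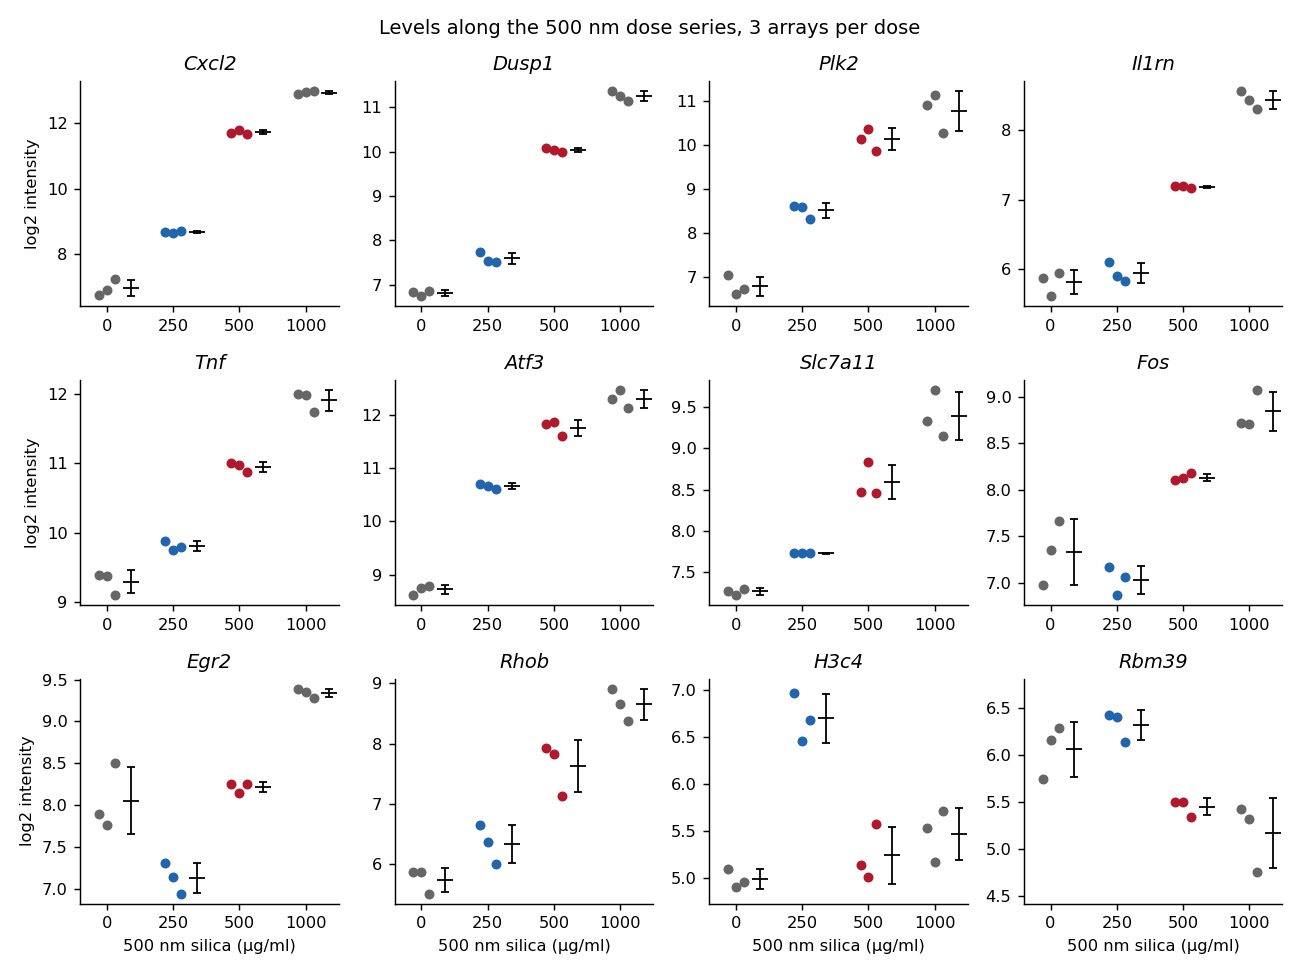
Log2 intensity of 12 named genes is plotted on each array of untreated cells (0) and of cells at 250, 500 and 1000 µg/ml of 500 nm silica, in grey except for blue at 250 and red at 500 µg/ml, with the mean and SD in black beside the points. Cxcl2 and Dusp1 climb most between 250 and 500 µg/ml, Il1rn and Tnf climb about as far again by 1000 µg/ml, Egr2 stands lower at 250 µg/ml than in untreated cells, Fos at 250 µg/ml overlaps untreated cells, and H3c4 is high at 250 µg/ml alone.

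The list of immediate early transcription factors, which also holds regulators of other kinds such as Ier3 and Zfp36, had the most calls of any list. It was chosen with earlier results of these data known. Of 31 measured, 10 were higher at 500 µg/ml and 0 lower, the median was 0.45, and 26 had a positive change. Over all 12393 genes, taken in the same way, 0.371% were called higher and 51.8% had a positive change. Atf3, a repressor induced by many stresses, had 11.83, 11.87 and 11.60 at 500 µg/ml, against 10.71, 10.67 and 10.60 at 250 µg/ml (log2 change 1.10 ± 0.11 SE, adjusted p 2.64e-05 by limma). Maff, a small Maf protein that pairs with NRF2 and other factors, had 7.94, 7.61 and 7.52 at 500 µg/ml, against 6.73, 6.51 and 6.32 at 250 µg/ml (1.17 ± 0.15 SE, adjusted p 0.000487 by limma). Atf3 and Maff both lay well above untreated cells already at 250 µg/ml, with means of 10.66 and 6.52 at 250 µg/ml, against 8.72 and 5.46 in untreated cells.

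Fos, a subunit of AP-1, had 8.10, 8.12 and 8.18 at 500 µg/ml, against 7.17, 6.87 and 7.06 at 250 µg/ml (log2 change 1.10 ± 0.19 SE, adjusted p 0.00953 by limma). Untreated cells averaged 7.33 ± 0.35 (SD, n = 3). Egr2, a zinc finger factor of the EGR family, had 8.25, 8.14 and 8.25 at 500 µg/ml, against 7.30, 7.14 and 6.94 at 250 µg/ml (1.09 ± 0.15 SE, adjusted p 0.00102 by limma), and averaged 8.05 in untreated cells. Its second probe set rose by 0.98. Egr1 rose by 1.08 to 11.28 ± 0.20 at 500 µg/ml, against 10.19 ± 0.15 at 250 µg/ml (SD, n = 3 each), with 10.62 in untreated cells. At 250 µg/ml the level against untreated cells passed the test for the brighter Egr2 probe set, which was lower by a log2 change of -0.92 (adjusted p 0.00515 by limma). It did not for the second Egr2 probe set (-0.67, adjusted p 0.212), Egr1 (-0.43, adjusted p 0.733) or Fos (-0.29, adjusted p 1), and the Fos arrays of these groups overlapped. The untreated arrays differed in a sign of RNA quality, the log2 excess of 3′ over 5′ control probe sets of Gapdh and beta-actin (0.17, 0.17 and 1.15). Untreated replicate 3, with 1.15, was the highest untreated array for the brighter Egr2 probe set (8.50, against 7.89 and 7.76) and Fos (7.66, against 6.97 and 7.35). This array enters every mean of untreated cells, and its part was not tested. The other called members were Jun (0.70) and Fosl1 (0.79), which are AP-1 subunits, Ier3 (1.02) and Ier5 (0.54), which are immediate early response genes, and Zfp36 (1.08), which speeds decay of Tnf mRNA. Klf10, Nr4a3, Klf4, Egr4 and Myc had changes of -0.27 to -0.01 without a call, and were the only members below 0. The Fos call was lost without replicate 3 at 500 µg/ml (adjusted p 0.0542), replicate 2 at 250 µg/ml (0.0775) or replicate 3 at 250 µg/ml (0.0511), and that of Zfp36 without any array but replicate 3 at 500 µg/ml (up to 0.27).

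Genes that restrain or relay NF-kB signalling gave 3 calls among 22 measured, all higher (0.371% of all genes were), with a median of 0.12. Gadd45b, a stress-induced protein that protects cells against death signals, rose in both of its called probe sets. The larger change was in the probe set with 8.19, 8.23 and 8.18 at 500 µg/ml, against 7.13, 6.91 and 7.08 at 250 µg/ml (log2 change 1.16 ± 0.10 SE, adjusted p 7.37e-06 by limma). Its brighter probe set had 8.61, 8.65 and 8.64 at 500 µg/ml, against 7.55, 7.55 and 7.63 at 250 µg/ml (1.06 ± 0.12 SE, adjusted p 8.61e-05 by limma). Traf1, an adaptor of the TNF receptors, rose by 0.98 (adjusted p 0.00738 by limma). Nfkbiz, an atypical IκB protein that helps switch on secondary genes, was called in both probe sets, at 0.96 and 0.87. The call of the brighter Nfkbiz probe set was lost on leaving out any of the 6 arrays (adjusted p 0.12 to 0.275). That of Traf1 was lost without replicate 2 at 500 µg/ml or replicate 2 or 3 at 250 µg/ml (adjusted p up to 0.0655).

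Stress programmes moved in a few members each. Slc7a11, the cystine importer that feeds glutathione synthesis, had 8.47, 8.83 and 8.46 at 500 µg/ml, against 7.73, 7.73 and 7.74 at 250 µg/ml (log2 change 0.85 ± 0.13 SE, adjusted p 0.00221 by limma). Srxn1, which repairs oxidised peroxiredoxins, had 9.43, 9.50 and 9.27 at 500 µg/ml, against 8.66, 8.59 and 8.51 at 250 µg/ml (0.81 ± 0.13 SE, adjusted p 0.00345 by limma). They were the 2 calls among 24 measured NRF2 genes, whose median was 0.05, against 0.371% of all genes called higher, and with the replicate number as a block 4 of the list were called higher, by the addition of Sqstm1 (0.71) and Osgin1 (0.54). Ddit3, the transcription factor CHOP of the integrated stress response, had 9.16, 9.16 and 9.12 at 500 µg/ml, against 8.58, 8.33 and 8.17 at 250 µg/ml (0.78 ± 0.12 SE, adjusted p 0.0019 by limma). Ddit4, a stress-induced inhibitor of mTOR, rose by 0.85 (adjusted p 0.0016 by limma) and Ppp1r15a, the phosphatase subunit that ends the block of translation, by 0.93 (adjusted p 0.0371 by limma). These 3 were the calls among 39 measured genes of the integrated stress and unfolded protein responses, with a median of 0.09, again beside 0.371% of all genes. The Ppp1r15a call was lost on leaving out any 1 array (adjusted p 0.0933 to 0.231). Of 26 measured p53 targets, Plk3 and Mdm2 were higher, beside 0.371% of all genes. Mdm2, the ligase that degrades p53, rose by 0.51 (adjusted p 0.0121 by limma), a call lost without replicate 1 at 500 µg/ml or any array at 250 µg/ml (adjusted p up to 0.116). Of 23 heat shock genes 0 were called by their brightest probe set, and Dnajb4 came nearest, at 0.37 (adjusted p 1 by limma). A dimmer probe set of Hspa8, the constitutive chaperone, was called at 0.71, while its brightest changed by 0.13.

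Several rises were of genes for secreted, surface and enzyme proteins. Procr, the endothelial protein C receptor, had 5.73, 6.01 and 5.94 at 500 µg/ml, against 5.01, 4.67 and 4.71 at 250 µg/ml (log2 change 1.10 ± 0.13 SE, adjusted p 0.000169 by limma). The 250 µg/ml mean of Procr, 4.80, was close to that of untreated cells, 4.87. Plau, the urokinase that activates plasminogen, rose in both probe sets, by 0.78 in the brighter one (adjusted p 0.00225 by limma) and by 0.82 in the other. Hbegf, a heparin-binding ligand of the EGF receptor, rose by 0.86 (adjusted p 0.0486 by limma), and this call was lost without any array but replicate 1 at 250 µg/ml (adjusted p up to 0.36). They were the 2 calls among 28 growth factor, urokinase and protease genes, with a median of 0.04, beside 0.371% of all genes called higher. Ptgs2, the inducible cyclooxygenase of prostaglandin synthesis, had 9.31, 9.44 and 9.39 at 500 µg/ml, against 8.11, 8.42 and 8.58 at 250 µg/ml (1.01 ± 0.15 SE, adjusted p 0.00158 by limma). It was the 1 call among 21 genes of cyclic AMP and prostaglandin signalling, beside 0.371% of all genes called higher. The replicate block gave 2 in this list, with Crem (0.70). Acod1, which makes itaconate, rose by 1.03 and averaged 7.68 in untreated cells, 7.59 at 250, 8.62 at 500 and 10.00 at 1000 µg/ml. Clec4e, the C-type lectin Mincle that senses damaged cells, rose by 0.65 (adjusted p 0.0162 by limma). It was the 1 call among 34 scavenger, phagocytic and Toll-like receptors, beside 0.371% of all genes called higher. The Clec4e call was lost without any 1 array (adjusted p 0.0542 to 0.102). C3ar1, the receptor of complement fragment C3a, rose by 0.60.

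Rhob, a small GTPase of endosomes and the actin cytoskeleton, averaged 7.63 ± 0.43 at 500 µg/ml and 6.33 ± 0.32 at 250 µg/ml (SD, n = 3 each), with 7.13 as the lowest array at 500 µg/ml and 6.65 as the highest at 250 µg/ml (log2 change 1.29 ± 0.28 SE, adjusted p 0.0472 by limma). Replicate 3 was the lowest in both groups. The call was lost without any array but replicate 3 at 500 µg/ml, with adjusted p up to 0.362. Rhob was the 1 call among 32 measured actin and SRF target genes, whose median was 0.03, beside 0.371% of all genes called higher. H1f2, a linker histone, rose in 2 of its 3 probe sets. The larger change was in the one with 9.12, 9.20 and 9.17 at 500 µg/ml, against 8.12, 7.96 and 8.16 at 250 µg/ml (1.08 ± 0.11 SE, adjusted p 2.98e-05 by limma). The third probe set of H1f2 changed by -0.13. Histone genes are near copies of each other, so probes may read several of them. A probe set listed for H2bc8, H2bc6 and H2bc4 together rose by 1.32.

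Sertad1, a regulator of cyclin-dependent kinase and E2F activity, rose by 0.67 (adjusted p 0.00181 by limma). With Zfp36 it made the 2 calls among 28 mRNA decay and short-lived regulator genes, beside 0.371% of all genes called higher. The remaining genes called higher were Phlda1 (0.98), Zfand2a (0.79 and 0.60), Zfp703 (0.77), Nabp1 (0.76 and 0.74), Pard6b (0.76), Btg2 (0.72), Osgin2 (0.61), Arid5a (0.56), Zbtb21 (0.53) and Siah2 (0.52). Of these, Zfand2a is an arsenite-inducible proteasome partner, Btg2 an antiproliferative cofactor of mRNA deadenylation, and Siah2 a ubiquitin ligase. Besides the H2b probe set, 1 with 2 listed symbols rose by 0.48, and 4 without a listed symbol rose by 1.92, 1.27, 0.41 and 0.37.

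**Figure D3:**
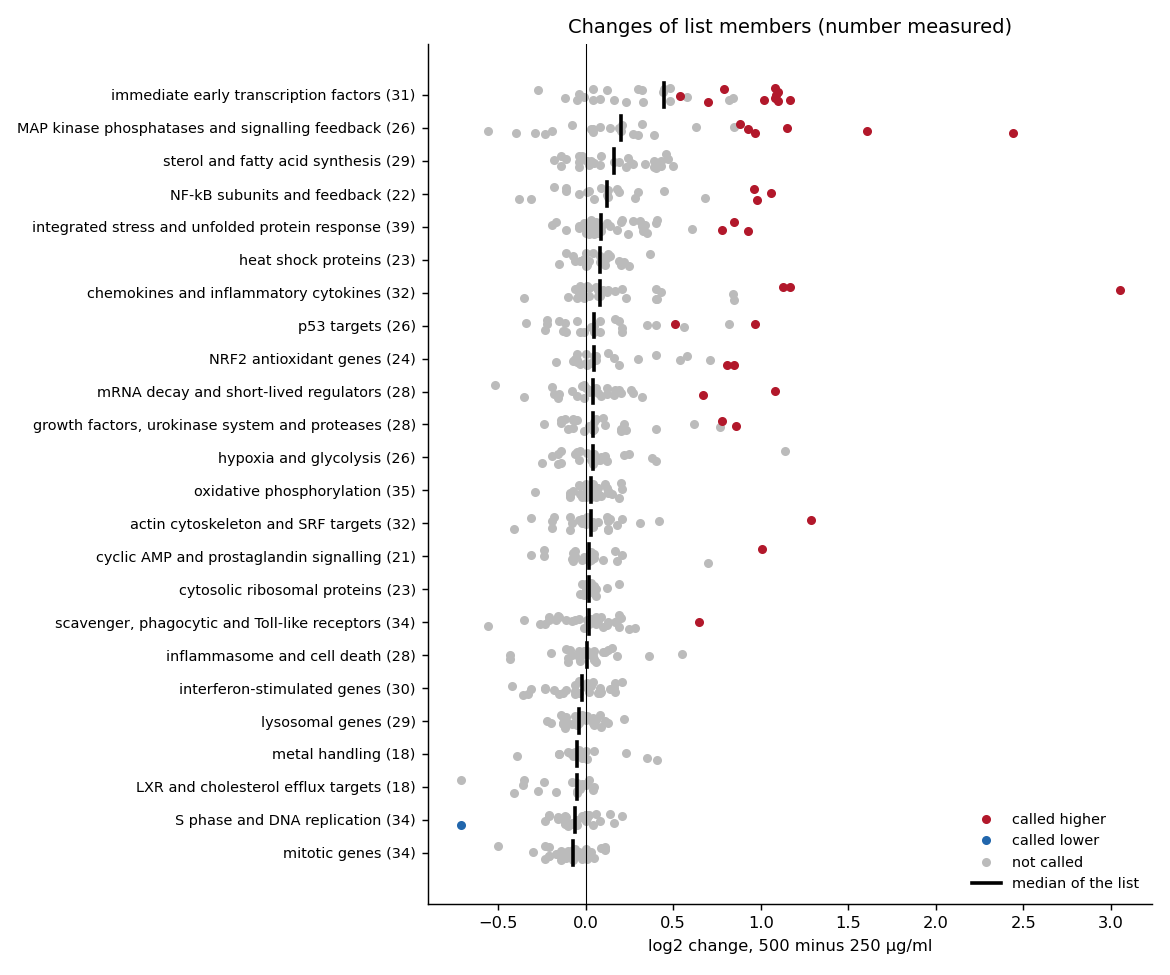
Each point is the log2 change (500 minus 250 µg/ml) of a list member by its brightest probe set, with lists ordered by their median (black bar) and the number measured in brackets. Red points were called higher, blue lower and grey not called. Immediate early factors have the highest median, 0.45, and 10 called members, while lists of cell machinery cluster near 0.

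Many lists held no call over the step in the fit without the replicate block. Sterol and fatty acid synthesis had 0 of 29 called, yet a median of 0.16, with 14 members whose 3 arrays at 500 µg/ml all lay above those at 250 µg/ml (4.74% of all probe sets and 5.09% of all genes did) and 12 with a higher level at an unadjusted p under 0.05 (1.69% of all genes). With the replicate number as a block, 2 of its members were called higher, the sterol enzyme genes Msmo1 and Sc5d (0.50). Msmo1, a sterol methyl oxidase, came nearest, with 10.77, 10.98 and 10.74 at 500 µg/ml, against 10.31, 10.49 and 10.31 at 250 µg/ml (0.46 ± 0.11 SE, adjusted p 0.111 by limma). Among 18 LXR and cholesterol efflux targets, Mylip, the ligase that degrades the LDL receptor, had 7.46, 7.39 and 7.36 at 500 µg/ml, against 7.86, 7.81 and 7.79 at 250 µg/ml (-0.41 ± 0.11 SE, adjusted p 0.269 by limma). The doses did not overlap in Msmo1 or Mylip, and neither passed this test, but both verdicts depended on the setting. Msmo1 was called in 4 of 19 alternatives, among them the replicate block (adjusted p 0.0215 by limma), and Mylip in 2 of 19, with array weights (0.0101) and with the replicate block as a random effect (0.0481). In the same list Abca1, the cholesterol exporter, changed by -0.71 (adjusted p 0.516 by limma, and 0.0461 with the replicate block). Hilpda, a lipid droplet protein of the hypoxia list, had 8.27, 8.54 and 8.26 at 500 µg/ml, against 7.24, 7.22 and 7.20 at 250 µg/ml, and its change of 1.14 ± 0.26 SE missed the threshold (adjusted p 0.0746 by limma). Hilpda was called in 8 of 19 alternatives, among them the replicate block (adjusted p 0.000419 by limma), quantile normalization (0.0155) and the spread of the step's own groups (0.00559). None of the other 25 measured hypoxia and glycolysis genes was called. The lists of oxidative phosphorylation (0 of 35, median 0.03), ribosomal proteins (0 of 23, 0.02), lysosomal genes (0 of 29, -0.04), inflammasome and cell death (0 of 28, 0.01), interferon-stimulated genes (0 of 30, -0.02), mitotic genes (0 of 34, -0.07) and metal handling (0 of 18, -0.05) had no call by their brightest probe sets. Of the mitotic genes, 8 had all arrays at 500 µg/ml below those at 250 µg/ml and 1 had them above. Of all 12393 genes, 795 lay below and 631 above. Positive changes were seen in 8 of the 34 mitotic genes, beside 6419 of all genes.

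The falls were smaller and most rested on 1 probe set of a gene. H3c4, a replication-type histone gene, had the largest. It had 5.14, 5.01 and 5.58 at 500 µg/ml, against 6.97, 6.46 and 6.68 at 250 µg/ml (log2 change -1.46 ± 0.19 SE, adjusted p 0.000442 by limma). Its means were 4.99 in untreated cells, 6.70 at 250, 5.24 at 500 and 5.47 at 1000 µg/ml, so that the 250 µg/ml arrays were the high ones. The other means lay in the range of the marker list averages of other cell types, and so may be near background. Agfg2, a relative of ARF GTPase-activating proteins, had 6.40, 6.18 and 6.41 at 500 µg/ml, against 7.60, 7.34 and 7.73 at 250 µg/ml (-1.22 ± 0.17 SE, adjusted p 0.00131 by limma). The means of this Agfg2 probe set were 8.27 in untreated cells, 7.55 at 250, 6.33 at 500 and 5.40 at 1000 µg/ml. The part between untreated cells and 250 µg/ml was not called (-0.72, adjusted p 0.122 by limma), and the brighter Agfg2 probe set changed by -0.16 over the step (adjusted p 1). Nisch, which encodes the integrin-binding protein nischarin, had 7.16, 6.95 and 7.26 at 500 µg/ml, against 8.15, 8.15 and 8.28 at 250 µg/ml (-1.07 ± 0.15 SE, adjusted p 0.00108 by limma), and fell by 0.68 in a second probe set. The brightest Nisch probe set changed by -0.32 (adjusted p 0.298 by limma) and the dimmest by 0.13, and neither was called. Skp2, the F-box protein that targets the inhibitor p27, fell by 0.83 (adjusted p 0.000751 by limma), and Snx5, a sorting nexin of endosomes, by 0.81 (adjusted p 0.00279 by limma). The called probe set of Skp2 was its dimmest, and the others changed by -0.39 to -0.11 without a call. These calls of H3c4, Agfg2, Nisch, Skp2 and Snx5 were kept on leaving out each array in turn.

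Rbm39, a splicing factor, had 9 probe sets, of which 5 were called lower, by 0.60 to 0.88. The largest of these falls was in the probe set with 5.50, 5.50 and 5.34 at 500 µg/ml, against 6.43, 6.40 and 6.14 at 250 µg/ml (adjusted p 0.0355 by limma). The other 4 probe sets of Rbm39 changed by -0.56, -0.53, 0.03 and 0.13. Ap2a2, a subunit of the clathrin adaptor AP-2, fell by 0.92, Nono, an RNA-binding protein of paraspeckles, by 0.89, and Cfl2, an actin-severing cofilin, by 0.86. Falls of 0.85 in Mdp1, a phosphatase, and of 0.82 in Dna2, a nuclease-helicase of DNA replication, were also called. Gas5, a noncoding host of small nucleolar RNAs, fell by 0.80, Man2b1, the lysosomal alpha-mannosidase, by 0.76, Ogt, the O-GlcNAc transferase, by 0.74 and Tyms, thymidylate synthase, by 0.71. Tyms was the 1 call among 34 S phase genes, whose median was -0.06, beside 0.0646% of all genes called lower. Positive changes were seen in 9 of these 34, beside 51.8% of all genes. The remaining falls were of Washc2 (-0.70), Gpr34 (-0.67), Themis2 (-0.65), Akr1b10 (-0.63), Dtl (-0.61), Capn7 (-0.58), Pabpn1 (-0.54), Thrap3 (-0.49), Tifa (-0.48) and Snrnp48 (-0.45), of 2 probe sets without a listed symbol (-1.04 and -0.88), and of 1 listed for Rpl3 with 2 other genes (-0.78). Some of these falls were in dim probe sets, within the range of the marker list averages of other cell types (3.73 to 5.90). The means at 500 and 250 µg/ml were 4.22 and 4.92 for Tyms, 4.64 and 5.56 for Ap2a2, and 3.76 and 4.42 for Gpr34. They were 5.02 and 5.72 for Washc2, 5.04 and 5.67 for Akr1b10, and 5.12 and 5.73 for Dtl. Such levels may lie near background. Leaving out any of the 6 arrays ended the calls of the Rbm39 probe set with the largest fall, Cfl2, Mdp1 and Tyms, with adjusted p between 0.0627 and 0.29. The Nono call was lost without replicate 1 or 2 at 500 µg/ml or replicate 3 at 250 µg/ml (adjusted p up to 0.0655). That of Ap2a2 was lost without any array but replicate 1 at 500 and replicate 2 at 250 µg/ml (up to 0.102), and that of Gas5 without any but replicate 2 at 500 and replicate 1 at 250 µg/ml (up to 0.122). Man2b1 lost its call without replicate 1 or 3 of either dose (up to 0.0902), Dna2 without any array but replicate 2 at 250 µg/ml (up to 0.183), and Ogt without any but replicate 1 at 500 µg/ml (up to 0.271).

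In most rising genes the brightest probe set was itself called, and in most falling genes it was not. Among 22 genes called higher that have several probe sets, the brightest one was called in 18. Among 21 such genes called lower it was called in 4. In the other 17 the brightest probe set had a median change of -0.15, within a range of -0.36 to 0.07. The 26 probe sets that were not called but belong to the 22 rising genes had a median of 0.45, and 25 of them were positive. The 51 that belong to the 21 falling genes had a median of -0.11, and 39 were negative. For Ogt, the 4 probe sets that were not called lay between -0.08 and 0.08, against -0.74 in the called one. For Snx5 they lay between -0.11 and 0.01, against -0.81. With each of 12393 genes taken by its brightest probe set, 46 genes were higher (0.371%) and 8 lower (0.0646%), together 0.436%. The called probe sets of rising genes had a median log2 intensity of 8.68 over the 21 arrays and those of falling genes 6.48.

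**Figure D4:**
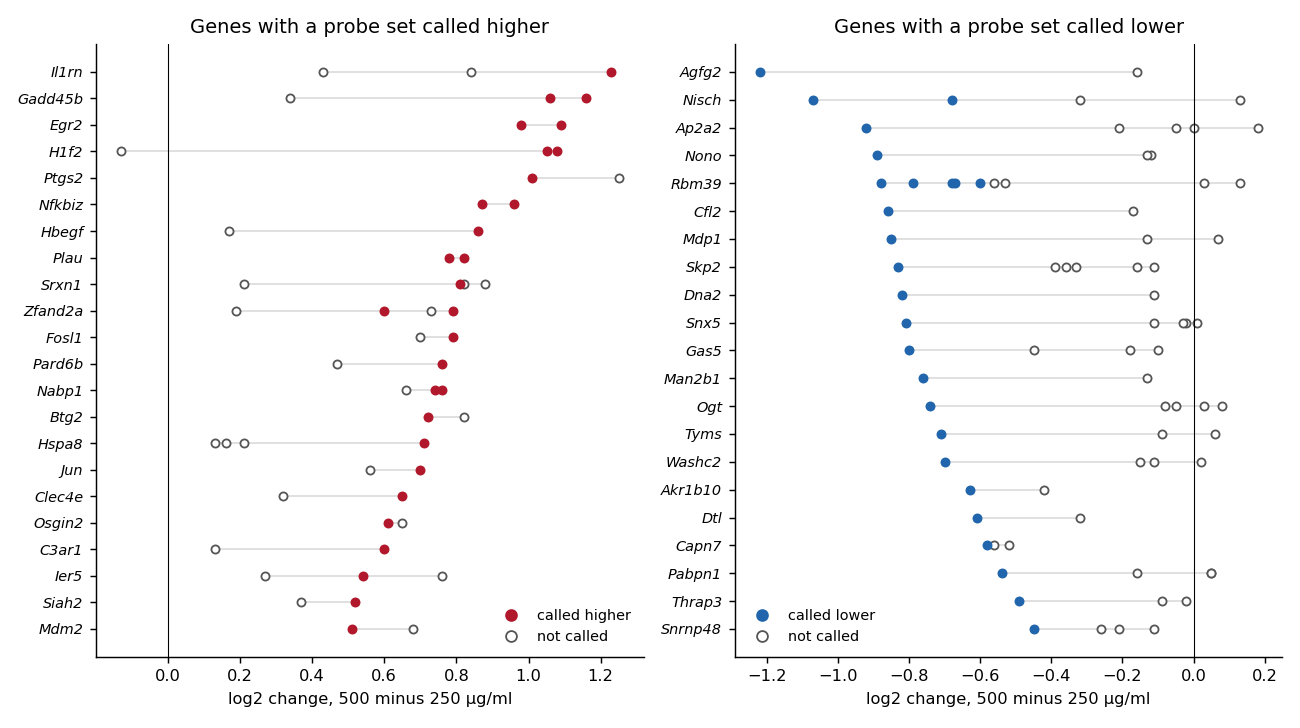
For genes with several probe sets, each row gives the log2 change (500 minus 250 µg/ml) of every probe set, filled where it was called in the direction of the panel and open where it was not. In the panel of rises most open points are well above 0, while in the panel of falls many lie near 0, as for Snx5, Ogt and Nono.

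The next step of the same particle, 1000 over 500 µg/ml, is also 2-fold and shares the 500 µg/ml arrays, so its values are set beside the first step only as such. Cxcl2 rose by 3.05 in the first step and by 1.21 in the second, and Dusp1 by 2.44 and by 1.22. In the fit over all arrays these were the 2 probe sets (0.00884% of those tested) whose steps differed, by 1.84 ± 0.22 SE for Cxcl2 (adjusted p 0.00276 by limma) and by 1.22 ± 0.16 SE for Dusp1 (adjusted p 0.00703 by limma). At an unadjusted p under 0.05 there were 391, fewer than would pass at that threshold if no step differed. Array weights gave 224 called probe sets, and arrays centred and rescaled to a common spread gave 0. On leaving out 1 array the count of 2 became 0 without replicate 2 at 500 µg/ml, and 1 without replicate 1 or replicate 3 at 500 µg/ml. The changes in the first and second step were 1.13 and 0.96 for Tnf, 1.23 and 1.24 for Il1rn, and 1.16 and 1.46 for Gadd45b. They were 1.01 and 0.20 for Ptgs2, 0.85 and 0.17 for Ddit4, and 0.70 and 0.26 for Jun, and the unadjusted p of the difference between the steps was 0.00503, 0.00558 and 0.0529, but after adjustment over all probe sets none of these 3 was called (adjusted p 1 for each). Over all probe sets 386 were called in the second step (1.71%).

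The same change of label, mid over low dose, can be set beside that of the 10 nm particle, which shares no array with it. That step runs 20 over 5 µg/ml and is 4-fold, so the comparison is of the steps as given and not of the particles at matched doses. A sign of RNA quality moved with the 10 nm step. The log2 excess of the 3′ over the 5′ control probe sets of Gapdh and beta-actin was 0.17, 0.19 and 0.47 at 20 µg/ml, against 0.48, 0.55 and 0.47 at 5 µg/ml of 10 nm silica. For 500 nm silica it was 0.31, 0.14 and 0.32 at 500 µg/ml, against 0.38, 0.15 and 0.31 at 250 µg/ml. Its part in the difference between the steps was not tested. In the 10 nm step 888 probe sets were called (3.92%). Of the 96 calls of the 500 nm step 63 were called in the same direction in the 10 nm step, which is 65.6% of the 500 nm calls and 7.09% of the 10 nm calls, and 0 in the opposite one. Split by direction, 50 of the 63 rises and 13 of the 33 falls were shared, where the 10 nm step called 1.33% of probe sets higher and 2.59% lower. The rises had a median of 0.93 in the 500 nm step and 0.96 in the 10 nm step, and 62 of the 63 were positive in the 10 nm step, against 48.5% of all probe sets. The falls had a median of -0.76 in the 500 nm step and -0.36 in the 10 nm step.

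The steps themselves differed for 81 probe sets (0.358%), 26 more positive and 55 more negative in the 500 nm step, and 16 of the 96 calls were among them. Ddit3 rose by 0.78 in the 500 nm step and changed by -0.15 in the 10 nm step (difference 0.93 ± 0.17 SE, adjusted p 0.0127 by limma). The H1f2 probe set with the larger rise changed by 1.08 in the 500 nm step and by 0.31 in the 10 nm step (0.77 ± 0.16 SE, adjusted p 0.0423 by limma). The 500 nm and 10 nm changes were 1.29 and 4.11 for Rhob, 1.09 and 3.09 for Egr2, 1.10 and 2.82 for Fos, 1.02 and 1.94 for Ier3, and 0.71 and 2.15 for the dimmer Hspa8 probe set. In these 5 genes the rise was smaller in the 500 nm step by the test of the difference. H3c4 fell by 1.46 in the 500 nm step, against a change of 0.41 in the 10 nm step (difference -1.86 ± 0.26 SE, adjusted p 0.00152 by limma). Among genes without a call in the 500 nm step, the 500 nm and 10 nm changes were 0.20 and 3.39 for Nr4a2, 0.45 and 3.60 for Klf2, 0.33 and 3.21 for Nr4a1, and -0.12 and 2.99 for Slc20a1. Nr4a1 and Nr4a2 are immediate early nuclear receptors, and Slc20a1 is a phosphate importer, for which a single probe set of 2 passed the test of the difference. Pde4b had 0.10 in the 500 nm step, against -1.65 in the 10 nm step. Slc7a11, with 0.85 in the 500 nm step and 0.08 in the 10 nm step, and Plau, with 0.78 in the 500 nm step and 0.26 in the 10 nm step, were called in the 500 nm step and not in the other, but for neither did the difference of the steps pass the threshold. Leaving out 1 of the 6 arrays brought the count of 81 to between 48 and 61.

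**Figure D5:**
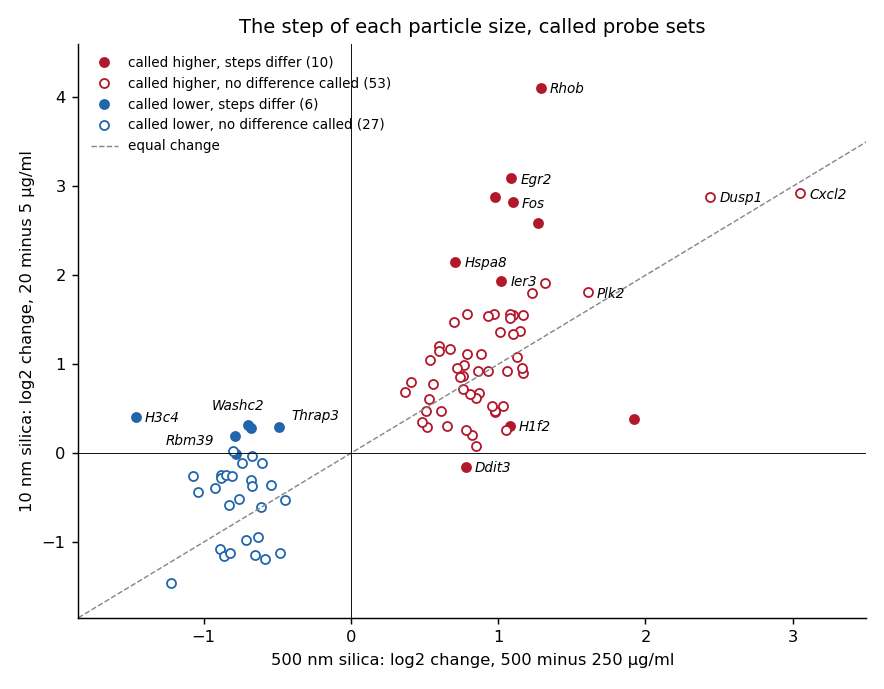
Each point is 1 of the 96 probe sets called in the 500 nm step, with its log2 change there (500 minus 250 µg/ml) across and that of 10 nm silica (20 minus 5 µg/ml) up the page. Filled points are the 16 whose steps differ by the fit, red for rises and blue for falls, and the dashed line marks equal change. Rhob, Egr2 and Fos lie far above the line, and Ddit3 and H1f2 below it.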

How the data were processed

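The deposited values are log10 values, 1 per probe set and array. Per the submitters' processing notes, the authors ran RMA. The sources used here give neither its version nor its settings. The log base is not stated. The highest value corresponds to 22019 intensity units in base 10 and to 20.3 in base 2, so base 10 was taken, and each value times 3.32 is the log2 value used. Per the labels' protocols, RNA was copied from an oligo-dT primer into biotin-labelled RNA. RMA may compress changes of dim probe sets. Arrays have no depth, and the precision is set by how many there are.

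Of 22690 probe sets, 64 were controls, 20380 had 1 usable gene symbol in the (possibly old) platform annotation, 691 had several and 1555 none. Of the 12393 genes, 12369 matched the RefSeq table of GRCm38.p6. Groups follow the sample titles. All 21 arrays entered 1 linear model per probe set in limma 3.58.1 under R 4.3.3 (moderated by eBayes, group alone, two-sided tests, 14 residual and 4.02 prior degrees of freedom). The fit was tested on simulated data. Members and lists were chosen with earlier results of these data known. Named are the 15 largest called rises and falls without overlap, up to 3 called members of a list (or that with the smallest p), and 5 per direction in each test of a difference. Same-numbered arrays of the doses deviated together (r 0.19, 0.52 and 0.60 over probe sets), so the replicate number was fitted as a block in an alternative. The main fit and its adjusted p-values did not use the block and ignore any such pairing. The block itself was fitted over all 21 arrays, where 13 of 63 same-numbered pairs correlated at or under 0.1. Alternatives were the normalization, centring, rescaling, dim filters, variance model, array weights, replicate block, probe set rule, size bound, threshold and left-out arrays. Figures were drawn with Python and matplotlib.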

Additional observations from a re-analysis of the deposited data

Results flagged for a closer look

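Between the particle sizes, the step of some genes differed by the test of the difference itself (limma over all arrays, 500 nm step minus 10 nm step, adjusted p under 0.05). The values follow on the log2 scale, and the steps are 2-fold for 500 nm and 4-fold for 10 nm silica, so dose and size cannot be told apart in them. More positive in the 500 nm step were Pde4b (1.75), the acid-sensitive channel gene Pacc1 (1.24), Gfi1 (1.19), Lpin1 (1.18), Gpr84 (1.14), Ddit3 (0.93) and H1f2 (0.77). Of these, Gpr84, a receptor of medium-chain fatty acids, had 0.06 in the 500 nm step, against -1.08 in the 10 nm step. Gfi1, a transcriptional repressor, had -0.52 in the 500 nm step, against -1.71 in the 10 nm step, and Lpin1, a phosphatidic acid phosphatase, had 0.52 in the 500 nm step, against -0.66 in the 10 nm step. Pacc1 has 5 probe sets, H1f2 3 and Lpin1 2, and for each a single probe set passed this test.

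More negative in the 500 nm step were the immediate early nuclear receptors Nr4a2 (-3.19) and Nr4a1 (-2.88), with Klf2 (-3.16), the phosphate importer Slc20a1 (-3.11) and Rhob (-2.82). The same held for Egr2 in both probe sets (-2.00 and -1.90), for Fos (-1.71), for a dimmer Hspa8 probe set (-1.45) and for Ier3 (-0.92). Among the called falls it held for H3c4 (-1.86), Washc2 (-1.01), Rbm39 in 2 probe sets (-0.98 and -0.97) and Thrap3 (-0.79). Washc2 had -0.70 in the 500 nm step, against 0.32 in the 10 nm step, and Thrap3 had -0.49 in the 500 nm step, against 0.29 in the 10 nm step. Washc2 has 4 probe sets, Thrap3 3 and Slc20a1 2, and for each a single probe set passed this test. The causes were not tested.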

How the results depend on the processing

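The count of 63 higher probe sets stayed between 52 and 76 under quantile normalization, centring, rescaling, the dim filters, the spread of the step's own groups, another variance model and the size bound. Array weights gave 273 higher, 245 lower, 224 that differ between the first and second step and 1080 that differ from the 10 nm step, against 63, 33, 2 and 81. The replicate block gave 102 higher, 55 lower and 155 that differ from the 10 nm step, and the replicate block as a random effect gave 99, 57 and 153. For the 10 nm comparison 4 of 18 same-numbered pairs correlated at or under 0.1, so the numbers are not taken to pair those samples. Rescaled arrays gave 18 lower and 0 that differ between the first and second step. The groups of the contrast alone gave 1 such probe set, as did leaving out replicate 3 of every group, which gave 60 higher and 22 lower. With 1 probe set per gene 8 were lower and 39 differed from the 10 nm step, and with the mean of a gene's probe sets 13 and 49, where fewer features were tested. At an adjusted p under 0.01 there were 13 lower and 43 that differ from the 10 nm step. Leaving out each array in turn gave 34 to 47 higher, 13 to 17 lower, 0 to 2 that differ between the first and second step and 48 to 61 that differ from the 10 nm step. Of 46 named calls, 19 held under every alternative run, among them Cxcl2, Dusp1, Plk2, Tnf, Atf3 and H3c4, 27 were lost under at least 1, and Mdp1 turned to 0.07 with 1 probe set per gene. Of the genes named for a list without a call in it, 7 gained one under at least 1 alternative, Hilpda under 8, Msmo1 under 4, Mylip under 2, and Dnajb4, Txnip, Cox7c and Slc30a1 under array weights. In 17 of the 21 falling genes with several probe sets, the brightest, which stands for the gene in the rule of 1 probe set per gene, was not called. The causes of these shifts were not tested.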
